A study of Mus musculus with 6 samples.

Results

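AP-1 is the dimeric transcription factor made of Fos and Jun proteins, and the genes of its subunits belong to the immediate early genes, which cells switch on without making new protein. All probe sets that the platform annotation names with exactly 1 symbol among Fos, Fosb, Jun, Junb, Jund, Atf3, Egr1, Myc, Ier2 and Ier3 were taken. This gave 11 probe sets of 10 genes, out of 22626 probe sets on the array. Jun has 2 probe sets and every other gene 1. The genes were measured in livers of male mice of strain KK/H1J, in which obesity and type 2 diabetes arise from many genes, aged 12 to 14 weeks and weighing about 35 g. For BPD mouse 28 the age label says 12 to 14 weeks, whereas its description gives 2 weeks as the lower end. Livers came from 3 mice (numbers 23, 28 and 36) given an adenovirus for bisphosphatase deficient PFK-2 (BPD), and from 3 mice (22, 29 and 31) given an adenovirus for green fluorescent protein (GFP). PFK-2 is an enzyme with a kinase and a phosphatase activity, which make and break down fructose 2,6-bisphosphate, an activator of glycolysis, and BPD lacks the phosphatase activity. Virus went into the tail vein at the same stated dose in both groups, and livers of freely fed mice were frozen on day 7. Both groups therefore carry an adenovirus, and the sources used here state neither the promoter of the transgenes nor the hour of killing. Each array holds the RNA of 1 mouse, and the comparison asks what BPD does to gene expression in a diabetic liver.

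In resting liver the immediate early genes are mostly quiet, and growth factors, cytokines, injury and stress switch them on within minutes through MAP kinases, the serum response factor and CREB family proteins. Their transcripts are short-lived, so a level reflects the hours or minutes before the tissue was frozen. Fos and FosB proteins bind DNA only as partners of Jun proteins, whereas Jun proteins also pair among themselves. Atf3 belongs to the same bZIP class and often represses its targets, Egr1 is a zinc finger activator, Myc drives growth and ribosome synthesis with its partner Max, and Ier2 and Ier3 are small early response proteins.

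Atf3 and Ier3 were the members that passed the test, both higher in BPD livers. Egr1, Fos, Myc, both Jun probe sets, Jund and Junb also had higher means in BPD livers, but none of these 7 probe sets passed. Ier2, at -0.16 on the log2 scale, did not pass either. Fosb was too dim to enter the test. Most members were highest in BPD liver 28 among the BPD livers and in GFP liver 31 among the GFP livers.

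Signals are the deposited linear intensities. Differences are BPD minus GFP on the log2 scale, after a constant of 16.3 was added to each signal and each array was centred on its median, with the standard error (SE) of limma, and p-values were adjusted with the Benjamini-Hochberg method over the 13575 probe sets bright enough to be kept. The median of all 8151 genes on this scale was -0.22, so a member at 0 lay above that median. Array medians were 175 to 197 in BPD livers and 136 to 158 in GFP livers. With 3 arrays per group, their number limits the precision. Each sample is labelled with its own mouse number.

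**Figure D1:**
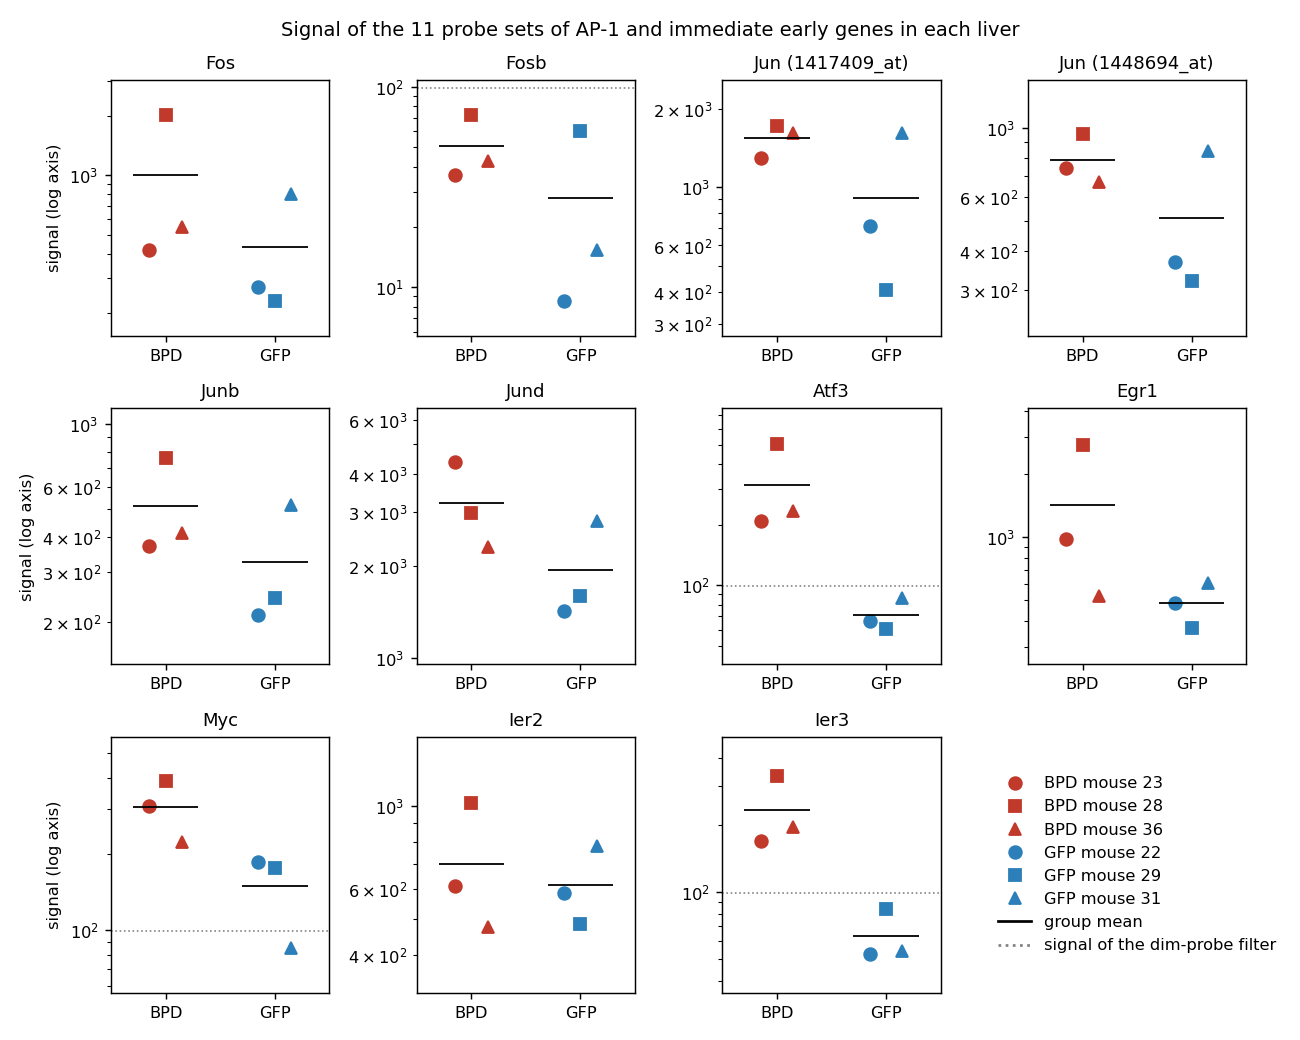
Deposited signal (log axis) of the 11 probe sets in each liver, BPD left in red and GFP right in blue. Points are single livers, black bars are group means, and the dotted line is the signal of 98.8 that corresponds to the filter on dim probe sets, drawn where it falls inside the panel. For Atf3 and Ier3 every BPD liver lies above every GFP liver, and BPD liver 28 is the highest BPD liver in 10 of the 11 panels.

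Atf3, a stress-induced member of the ATF/CREB family that can dimerise with Jun proteins, had signals of 209, 506 and 235 in BPD livers 23, 28 and 36, against 66.4, 60.5 and 86.1 in GFP livers 22, 29 and 31. Every BPD liver lay above every GFP liver, and BPD liver 28 stood above the other two. Mean signal was 317 ± 165 (SD, n = 3) in BPD livers and 71.0 ± 13.4 (SD, n = 3) in GFP livers. The difference was 1.53 ± 0.29 on the log2 scale, or 2.89-fold (limma adjusted p = 0.00543). This fold is of centred values with the constant added, and the ratio of the mean deposited signals was 4.46.

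Ier3, an early response gene that modulates cell survival and is also known as IEX-1, had signals of 169.8, 331 and 195 in BPD livers 23, 28 and 36, against 52.9, 84.2 and 54.2 in GFP livers 22, 29 and 31. Again the groups did not overlap and BPD liver 28 was the highest of all. The difference was 1.30 ± 0.25 on the log2 scale, or 2.46-fold (limma adjusted p = 0.00544). The ratio of the mean deposited signals was 3.64. Without BPD mouse 28 the log2 difference of Ier3 was 1.08 (adjusted p = 0.0309), and that of Atf3 was 1.21 (adjusted p = 0.02). Without both BPD mouse 28 and GFP mouse 31, an alternative added after the values were seen in which 3.46% of probe sets were called higher, Atf3 passed at 1.34 (adjusted p = 0.0236), whereas Ier3 at 1.01 did not (adjusted p = 0.0669).

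The 2 called probe sets of the 10 tested stand beside a background of 8.29% of all tested probe sets called higher. None of the 10 was called lower in limma (0 at an unadjusted p under 0.05), against 20.3% of all tested probe sets. The filter touches both calls, since the GFP means of Atf3 and Ier3 lay below the signal of 98.8 and their BPD signals carried them past it. Without the filter both were still called (adjusted p = 0.0132 for Atf3 and 0.0128 for Ier3), among 5.27% of probe sets called higher, and with a filter at the 60th percentile neither was bright enough to be tested and 0 of 7 members were called, against 7.71%. Without probe sets of the s, x and a types 1 of 8 was called, against 8.62%. The median difference of the 11 probe sets without the filter was 0.66, and that of all 22626 probe sets was -0.22.

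The upstream sequences of the called genes Atf3 and Ier3, and of Fos and Jun as the namesakes of AP-1, are shown to set their promoters side by side. They are the 250 bases before the gene's start, 5′ to 3′ on the gene's strand, from RefSeq on GRCm38.p6. Windows of 7 of the 10 members were used, and those of Egr1, Myc and Ier2 were not analysed here. The windows lie at chr1:191183334-191183583 (minus strand) for Atf3, chr17:35821463-35821712 (plus strand) for Ier3, chr12:85473640-85473889 (plus strand) for Fos and chr4:95052223-95052472 (minus strand) for Jun. Capitals mark matches, on either strand, to the motifs named after the sequences.
Atf3: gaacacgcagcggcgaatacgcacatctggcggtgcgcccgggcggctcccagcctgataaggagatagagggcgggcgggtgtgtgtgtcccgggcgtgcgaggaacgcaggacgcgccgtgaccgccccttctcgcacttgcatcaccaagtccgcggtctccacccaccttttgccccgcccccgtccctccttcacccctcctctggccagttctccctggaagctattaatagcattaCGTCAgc
Ier3: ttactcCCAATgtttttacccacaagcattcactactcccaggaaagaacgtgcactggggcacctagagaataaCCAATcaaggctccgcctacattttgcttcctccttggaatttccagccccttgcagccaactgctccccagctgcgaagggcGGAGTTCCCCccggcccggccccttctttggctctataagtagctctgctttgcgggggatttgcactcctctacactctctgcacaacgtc
Fos: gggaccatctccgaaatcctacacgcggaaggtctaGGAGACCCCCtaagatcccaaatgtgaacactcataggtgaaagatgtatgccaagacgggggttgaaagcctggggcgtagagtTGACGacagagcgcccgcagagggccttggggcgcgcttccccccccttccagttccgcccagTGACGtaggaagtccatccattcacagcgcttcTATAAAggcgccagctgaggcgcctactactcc
Jun: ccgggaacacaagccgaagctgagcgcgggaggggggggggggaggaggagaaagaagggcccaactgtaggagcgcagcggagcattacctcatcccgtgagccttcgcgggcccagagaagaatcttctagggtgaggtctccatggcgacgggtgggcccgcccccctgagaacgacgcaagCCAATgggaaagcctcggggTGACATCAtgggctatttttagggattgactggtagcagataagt
The motifs searched, on both strands, were TGANTCA as the AP-1 site, TGACGTCA as the full CREB site, the letters TGACG as its core (contained in the full site), TGACATCA as the type of site known from the Jun promoter (added after the Jun window was read), GCGNGGGCG as the Egr site, CACGTG as the E-box, the TATA box TATAAA, the letters CCAAT as the CCAAT box, and the CArG box of serum response factor and the NF-kB site by their consensus. Atf3 holds the CREB core 7 to 3 bases before its start, on the opposite strand. Fos holds this core at 129 to 125 and at 66 to 62 bases, TATAAA at 33 to 28 bases and an NF-kB match at 214 to 205 bases before its start. Jun holds TGACATCA at 45 to 38 bases and CCAAT at 65 to 61 bases. Ier3 holds CCAAT at 244 to 240 and at 175 to 171 bases and an NF-kB match at 92 to 83 bases, and no CREB core.

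Across the 7 windows the CREB core was found in 4 (Atf3, Fos, Fosb and Junb), against 17.8% of all 32851 windows of this length. The NF-kB consensus was found in 3 (Fos, Fosb and Ier3), against 7.25% of all windows, and CCAAT in 3 (Ier3, Jun and Junb), against 33.9%. The Jun type of site was found in Jun and in 2.93% of all windows, the Egr site in Fosb and in 4.70%, and TATAAA in Fos and in 12.4%. The Fosb window (chr7:19310046-19310295, minus strand) overlaps the annotated gene, which reaches to 19310118. Its CREB core and Egr site lie in that overlap, so by these coordinates they are inside the gene and not upstream of it. The AP-1 site (6.75% of all windows), the full CREB site (1.55%), the CArG box (1.47%) and the E-box (6.02%) were in none of the 7 windows. The search reached no further than 250 bases upstream and left out Egr1, Myc and Ier2. It therefore cannot say whether sites of these types lie further upstream or in those 3 genes. A match describes these letters only, and Atf3 and Ier3 share no motif of this set.

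Fos, the short-lived partner of Jun, had signals of 416, 2028 and 549 in BPD livers 23, 28 and 36, against 271, 230.1 and 802 in GFP livers 22, 29 and 31. The groups overlapped, since GFP liver 31 lay above BPD livers 23 and 36. The difference was 0.73 ± 0.57 (95% interval -0.55 to 2.02, limma adjusted p = 0.355). Without BPD mouse 28 it was 0.10, and without GFP mouse 31 it was 1.28 (adjusted p = 0.106).

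Fosb, a close relative of Fos, had signals of 36.5, 72.3 and 42.8 in BPD livers 23, 28 and 36, against 8.56, 59.9 and 15.2 in GFP livers 22, 29 and 31. GFP livers 22 and 31 lay below the added constant, and GFP liver 29 was within the BPD range in deposited signal. After centring, GFP liver 29 (6.30 on the log2 scale) lay above BPD liver 28 (6.22), the highest BPD liver. Fosb did not pass the filter on dim probe sets. Without the filter its difference was 0.43 ± 0.38 (limma adjusted p = 0.448).

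Jun, which encodes the AP-1 subunit needed for normal liver regeneration, had signals of 1293, 1720 and 1609 in BPD livers 23, 28 and 36 for probe set 1417409_at, against 715, 406 and 1612 in GFP livers 22, 29 and 31. The groups overlapped, with GFP liver 31 about as high as BPD liver 36 and GFP livers 22 and 29 below all BPD livers. Probe set 1448694_at of the same gene gave 743, 954 and 669 in BPD livers, against 369, 319.5 and 844 in GFP livers, in the same mouse order. Both probe sets thus had GFP liver 29 lowest and BPD liver 28 highest in deposited signal. After centring, GFP liver 31 was the highest of all livers for both (10.84 and 9.92 on the log2 scale, against 10.51 and 9.67 in BPD liver 28). The differences were 0.66 ± 0.42 (adjusted p = 0.262) and 0.43 ± 0.33 (limma adjusted p = 0.351). Without GFP mouse 31, where 4 member probe sets passed against 6.31% of all, both Jun probe sets passed, at 1.18 and 0.85 (adjusted p = 0.0195 and 0.0197), and without GFP mouse 29 they were at 0.15 and 0.11.

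Junb, which often restrains Jun, had signals of 371, 759.5 and 411 in BPD livers 23, 28 and 36, against 212, 243 and 519.6 in GFP livers 22, 29 and 31. Here too GFP liver 31 lay above BPD livers 23 and 36. The difference was 0.37 ± 0.34 (95% interval -0.38 to 1.13, limma adjusted p = 0.426). It was 0.11 without BPD mouse 28 and 0.76 without GFP mouse 31 (adjusted p = 0.0649), and 0.18 and 0.17 without GFP mouse 22 or 29.

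Jund, the Jun protein present in resting cells, had signals of 4370, 2977 and 2297 in BPD livers 23, 28 and 36, against 1427, 1596 and 2803 in GFP livers 22, 29 and 31. It was the 1 member whose signal was not highest in BPD liver 28 among BPD livers. The difference was 0.44 ± 0.30 (95% interval -0.25 to 1.12, limma adjusted p = 0.302). It was 0.16 without BPD mouse 23 and 0.74 without GFP mouse 31. With the 3' to 5' ratio of Gapdh as a covariate it was 0.78 and passed (adjusted p = 0.0192).

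Egr1, a zinc finger factor induced through serum response factor, had signals of 983, 2756 and 525 in BPD livers 23, 28 and 36, against 485, 370.4 and 607 in GFP livers 22, 29 and 31. BPD livers 23 and 28 lay above all GFP livers, and BPD liver 36 lay inside the GFP range. The difference was 0.91 ± 0.47 (95% interval -0.14 to 1.96, limma adjusted p = 0.17). It passed without BPD mouse 36 at 1.43 (adjusted p = 0.0216) and was 0.32 without BPD mouse 28.

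Myc had signals of 309, 388 and 223 in BPD livers 23, 28 and 36, against 186, 176 and 84.7 in GFP livers 22, 29 and 31. In deposited signal the groups did not overlap, and GFP liver 31 was the lowest, unlike for Fos, Jun, Junb and Jund. After centring, GFP liver 22 (7.90 on the log2 scale) lay above BPD liver 36 (7.79). The difference was 0.70 ± 0.29 with an unadjusted p of 0.0365 (limma adjusted p = 0.0952). It passed with the deposited scaling at 0.999 (adjusted p = 0.0441), a setting in which 16.7% of probe sets were called higher, and was 0.39 without GFP mouse 31.

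Ier2, a nuclear early response protein, had signals of 610.2, 1017 and 476 in BPD livers 23, 28 and 36, against 587, 483 and 778 in GFP livers 22, 29 and 31. The ranges overlapped almost fully. The difference was -0.16 ± 0.27 (95% interval -0.77 to 0.45, limma adjusted p = 0.673), and its sign turned under the deposited scaling (0.14), under quantile normalization (0.02) and under centring on bright probe sets (0.026).

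Of the 11 probe sets, 3 (Atf3, Ier3 and Myc) had all BPD livers above all GFP livers in deposited signal, and 2 (Atf3 and Ier3) after centring, where 27.1% and 12.7% of all tested probe sets did.

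**Figure D2:**
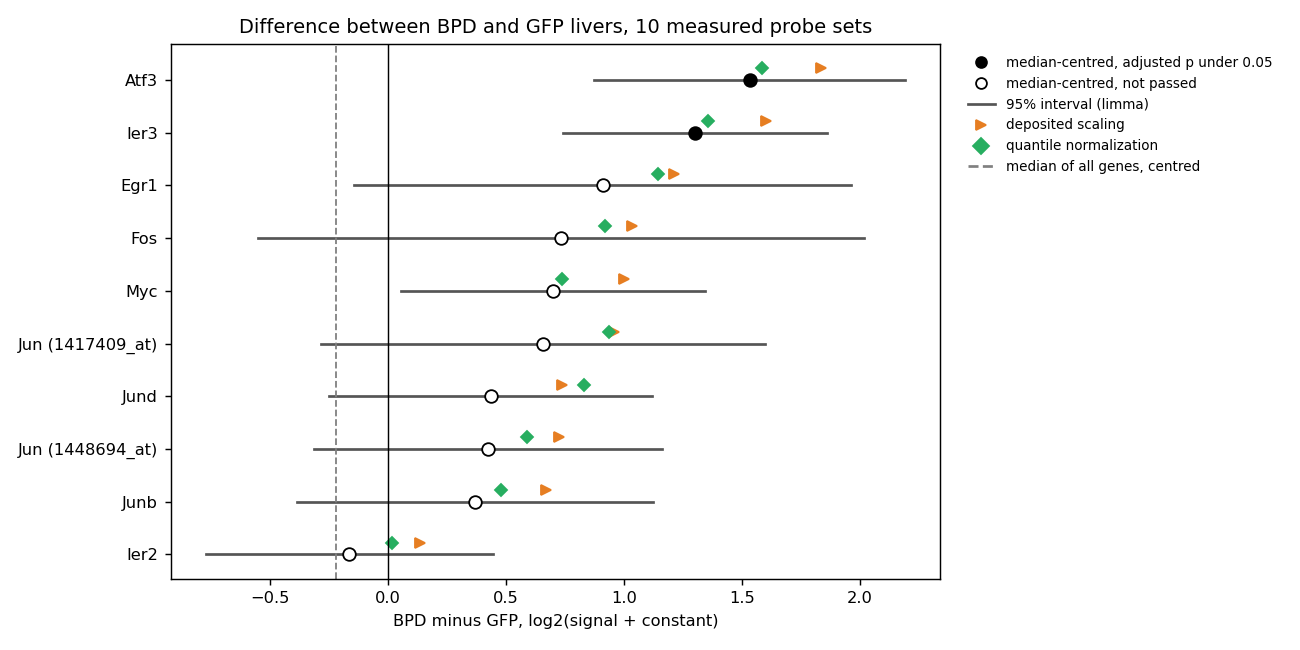
Difference between BPD and GFP livers for the 10 tested probe sets, on the log2 scale. Circles are median-centred values (filled where the limma adjusted p is under 0.05) with 95% intervals, triangles the deposited scaling, diamonds quantile normalization, and the dashed line the median of all genes after centring (-0.22). The intervals of Atf3 and Ier3 lie furthest from 0, at 0.87 to 2.19 and 0.74 to 1.86.

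The members varied more between mice of 1 group than most probe sets. The SD within groups on the centred log2 scale was 1.04 for Fos, larger than in 99.6% of the tested probe sets, and 0.84 for Egr1, larger than in 98.7%. Ier3 had the smallest SD of the members, 0.31, larger than in 73.0% of tested probe sets, whose median was 0.23.

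The same livers often stood highest. After centring, BPD liver 28 was the highest BPD liver in 9 of 11 member probe sets, against 16.1% of all tested probe sets, and GFP liver 31 was the highest GFP liver in 8 of 11, against 35.7%. In deposited signal the counts were 10 of 11 for BPD liver 28, against 34.2%, and 8 of 11 for GFP liver 31, against 34.2%. Both held together after centring for 6 of 11 probe sets, against 5.75% of all tested probe sets. The probe sets share livers and were counted after the values were seen, so these counts are a description.

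Fos was 4.203 times as high in BPD liver 28 as the mean of the other BPD livers, and Egr1 3.65 times. In GFP liver 31 Fos was 3.20 times, Jun 2.88 times (1417409_at) and Junb 2.28 times the mean of the other GFP livers. Myc went the other way there, at 0.468 times, and so did Fosb at 0.446 times and Ier3 at 0.792 times. GFP liver 31 was thus the highest GFP liver for Fos, Jun, Junb, Jund, Atf3, Egr1 and Ier2, but not for Fosb, Myc or Ier3.

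**Figure D3:**
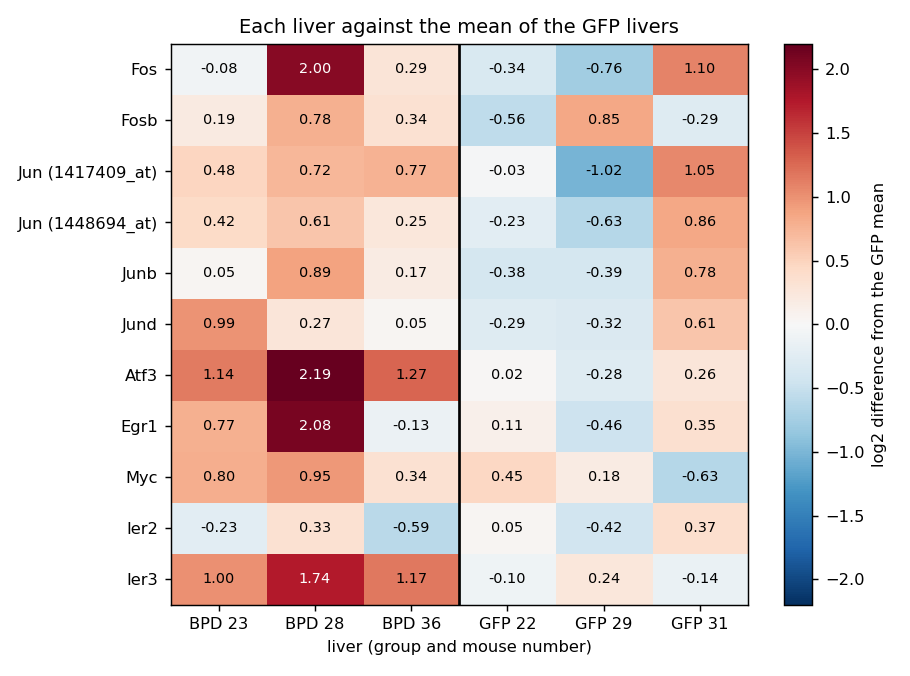
Centred log2 value of each liver minus the mean of the 3 GFP livers, for the 11 member probe sets (rows) in 3 BPD livers (left of the line) and 3 GFP livers (right). Red is above and blue below the GFP mean. BPD liver 28 is at 2.00 for Fos, 2.08 for Egr1 and 2.19 for Atf3, and GFP liver 31 is at 1.10 for Fos but -0.63 for Myc.

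Among the members themselves, profiles over the 6 livers were compared by the root mean square difference of centred log2 values, each gene taken from its own mean. Atf3 and Ier3 were closest to each other (0.317), Junb and Ier2 were closest to each other (0.386), and Jun, Jund and Fos were each closest to Junb (0.416, 0.467 and 0.465). Myc was closest to Ier3 (0.471) and Egr1 to Atf3 (0.512). Among all other named genes, the closest to Fos was Nr4a1 (0.441), an orphan nuclear receptor that is itself an immediate early gene, followed by Dtx3 (0.494) and Cyp2c55 (0.553). The closest to Ier3 were Dock2 (0.0852), an activator of Rac in white blood cells, cyclin A2 (Ccna2, 0.11) and Vasp (0.15), an actin regulator. Those closest to Atf3 were Nt5dc2 (0.274), Socs3 (0.288), a feedback inhibitor of cytokine signalling, and Dock2 (0.302).

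The genes closest to Egr1 were Il1b (0.305), which encodes interleukin-1 beta, Cyp2c55 (0.321) and Jchain (0.37). For Jun they were Dtx3 (0.27), Riox1 (0.342) and Cdc42bpa (0.371), for Junb Gstm3 (0.15), Hmox1 (0.195) and Pard3 (0.236), and for Jund Ctr9 (0.166), Macir (0.17) and Slc12a4 (0.175). For Myc they were Elk3 (0.126), an Ets partner of serum response factor, Ms4a6b (0.136) and Tmem165 (0.137), and for Ier2 Gsap, Mark4 and Pip5k1a (all between 0.190 and 0.193). With 6 livers in 2 groups and 8151 genes to choose from, close profiles are a description.

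The liver pieces also differed in markers of the cells they held. All 12 hepatocyte markers were measured and fell, beside 22.2% of all genes, with a summed signal of 134270 to 144848 in BPD and 197590 to 210464 in GFP livers. However, the count was 9 with the deposited scaling (11.1% of all genes lower), 5 under quantile normalization (12.9%) and 7 without both BPD mouse 28 and GFP mouse 31 (7.03%). Of 11 measured macrophage markers 8 rose, beside 8.75% of all genes, and the summed signal of the 12 on the array was 15384 to 35768 in BPD and 4501 to 13806 in GFP livers. The 3 that did not pass were Csf1r (1.19 ± 0.46), Vsig4 (0.48 ± 0.58) and Clec4f (-0.58 ± 0.58). Clec4f had mean signals of 458 in BPD and 463 in GFP livers. The macrophage count dropped to 4 when BPD mouse 23 or 28, or GFP mouse 31, was left out (5.18%, 4.72% and 6.52% of all genes higher). It was 5 without GFP mouse 22 (7.32%), with robust eBayes (8.44%) or with the Gapdh covariate (6.82%). It was 5 of 12 without the filter (5.70%) and 2 without both mice (3.70%). Of 6 measured neutrophil markers 4 rose, with a summed signal of the 8 on the array of 2031 to 8518 in BPD and 618 to 898 in GFP livers. Of these, S100a8, S100a9 and Ltf had GFP means below the filter (85.6, 61.5 and 64.2), and without the filter 3 of 8 rose. Leaving out BPD mouse 23 or 28, or GFP mouse 22, gave 2 neutrophil rises (5.18%, 4.72% and 7.32% of all genes higher). Stellate cell and matrix markers had 2 rises of 9 measured, with sums of 2565 to 13645 in BPD livers and 2103 to 2234 in GFP livers. The count was 8 of 9 without BPD mouse 36 (9.55% of all genes higher), 5 with array weights (9.84%) and 0 without both mice (3.70%). T and NK cell markers had 1 rise of 3 (0 to 3 with 1 mouse left out), B cell markers 0 of 3 and endothelial markers 1 rise and 1 fall of 8. The endothelial fall was Kdr, near the threshold (limma adjusted p = 0.0492). Endothelial falls numbered 0 with the deposited scaling, after quantile normalization and without the filter. They also numbered 0 with 1 mouse left out, except for 2 without GFP mouse 31 (14.6% of all genes lower). Among the rises of these lists, Col1a1 (stellate cell and matrix) and Cd3g (T and NK cell) had GFP means below the filter (17.6 and 64.9). Without the filter 2 of 10 stellate cell and matrix markers and 1 of 9 T and NK cell markers rose. The 1 cholangiocyte marker that passed the filter, Krt23, rose. Of 3 measured erythroid markers Hemgn and Slc4a1 rose, and Alas2, the brightest, fell by 1.62 ± 0.20 (means of 1383 in BPD and 3490 in GFP livers). The summed signal of the 5 erythroid markers on the array was 2750 to 2846 in BPD livers, below the 3069 to 4152 in GFP livers. Krt23, Hemgn and Slc4a1 also had GFP means below the filter (50.6, 15.8 and 69.9), and without it 1 of 6 cholangiocyte markers rose, and 3 of 5 erythroid markers rose and 1 fell. No marker of these lists lay below the added constant in all 6 livers. BPD liver 28 had the highest neutrophil, T and NK cell, B cell and endothelial sums. Its macrophage sum (33000) was below that of BPD liver 23 (35768), as were its stellate cell and cholangiocyte sums. GFP liver 31 had the lowest macrophage, T and NK cell, stellate cell and endothelial sums. Its neutrophil sum (632) was above that of GFP liver 22 (618), and its B cell sum (729) was the highest of the GFP livers. The part of these cell types in the levels of Atf3, Ier3 and the other members was not tested, and in bulk tissue fewer cells of a type and less RNA per cell cannot be told apart.

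The 3' to 5' signal ratio of Gapdh, a measure of RNA integrity, was 0.735 to 0.863 in BPD and 0.785 to 0.900 in GFP livers (exact 2-sided permutation p = 0.5, with 0.1 the smallest possible). That of beta-actin was 1.23 to 1.75 in BPD and 1.40 to 1.59 in GFP livers (exact 2-sided permutation p = 0.5).

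Of 39 other immediate early genes on the array 32 passed the filter, and of these 9 rose, 2 fell and 21 did not pass. The list's median lay 0.50 above the median of all genes, of which 8.75% were called higher and 22.2% lower. Klf6, a zinc finger factor induced by injury, averaged 707 ± 246 in BPD livers against 109 ± 26.4 in GFP livers (± SD of 3) and rose by 2.18 ± 0.28 on the log2 scale (limma adjusted p = 0.000981). Btg2, an antiproliferative gene, rose by 1.52 ± 0.30, Socs3 by 1.35 ± 0.24 and Rhob, a small GTPase, by 1.21 ± 0.18. These 4 were called under every alternative that could measure them. The 3 kept probe sets of Klf6 ranged from 1.12 to 2.18 and all passed. The kept probe sets of Socs3 ranged from 0.49 to 1.35 and 1 of 3 passed. Without BPD mouse 28 the list had 5 rises and 0 falls, against 4.72% of all genes called higher and 11.4% lower.

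Of 19 textbook AP-1 target genes that passed the filter, out of 27 on the array, 8 rose, 0 fell and 11 did not pass. The list's median lay 0.89 above the median of all genes, of which 8.75% were called higher and 22.2% lower. Mmp12, a macrophage elastase, averaged 386 ± 97.4 in BPD livers against 27.9 ± 17.5 in GFP livers and rose by 2.94 ± 0.34 (limma adjusted p = 0.000719). Its GFP mean lies below the filter. Vim, the intermediate filament vimentin, rose by 2.04 ± 0.33, Icam1, an adhesion molecule for white blood cells, by 1.77 ± 0.26 and Mmp14, a membrane metalloproteinase, by 1.004 ± 0.19, which missed the threshold without both BPD mouse 28 and GFP mouse 31 (adjusted p = 0.055). The list had 4 rises without BPD mouse 23 (5.18% of all genes higher) or BPD mouse 28. Falls appeared in 3 alternatives. There were 2 without GFP mouse 29 (19.7% of all genes lower), 1 without BPD mouse 36 (21.7%) and 1 without probe sets of the s, x and a types (17.6%). Without the filter 8 of 27 rose (5.70% of all genes), and the list's median then lay 0.58 above the median of all genes. White blood cells also express Mmp12, Icam1 and Vim, and the part of the macrophage and neutrophil markers given above in these rises was not tested.

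Among 10 measured partners of AP-1, 1 rose, 1 fell and 8 did not pass. The list's median lay 0.08 above the median of all genes, of which 8.75% were called higher and 22.2% lower. Nfe2l2, the NRF2 factor of the antioxidant response, averaged 3881 ± 762 in BPD livers against 1265 ± 193 in GFP livers and rose by 1.30 ± 0.19 (limma adjusted p = 0.00179). Mafg, a small Maf partner of NRF2, fell by 0.94 ± 0.24 (its other probe set, at -0.51, did not pass), though not with the deposited scaling (adjusted p = 0.0893) or after quantile normalization (0.0663), nor without BPD mouse 23 (0.0668) or 28 (0.0534). Crem (0.29 ± 0.17) and Atf2 (-0.27 ± 0.17, turned to 0.03 with the deposited scaling) did not pass.

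Of 21 measured upstream kinases and serum response factor partners, 1 rose, 6 fell and 14 did not pass. The list's median lay within 0.0019 of the median of all genes, of which 8.75% were called higher and 22.2% lower. Egfr, the receptor of epidermal growth factor, averaged 1241 ± 193 in BPD livers against 2574 ± 391 in GFP livers and fell by 1.35 ± 0.17 (limma adjusted p = 0.00101), with 3 of its 5 kept probe sets called and a range of -1.45 to -0.45. Map2k6 and Map2k3, kinases that activate p38, fell by 1.14 ± 0.20 and 1.13 ± 0.17, and Elk4, an Ets partner of serum response factor, by 0.72 ± 0.16. Map2k6 had a BPD mean of 84.2, below the filter, and was called without the filter too (adjusted p = 0.00868). Elk4, of whose 2 probe sets (-0.72 and -0.23) 1 passed, missed the threshold without both BPD mouse 28 and GFP mouse 31 (adjusted p = 0.0916). With the deposited scaling the list had 4 rises and 4 falls (17.2% and 11.1% of all genes).

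Among 9 measured genes of the Myc, Max and Mlx network, 0 rose and 4 fell with 5 not passed. Of all genes 8.75% were called higher and 22.2% lower, and the list's median lay 0.0099 above their median. The genes that fell were Mlxipl, the glucose-responsive factor ChREBP, by 0.81 ± 0.20, and Mxi1 by 0.62 ± 0.17 (its other probe set, at -0.24, did not pass). Mycl also fell, by 1.19 ± 0.34, and Mlx by 0.49 ± 0.15 (its probe sets ranged from -0.49 to 0.11). With the deposited scaling 1 rose and 0 fell, and without BPD mouse 28 none of the 9 was called. Without GFP mouse 22 each of the 4 missed the threshold (adjusted p of 0.0557, 0.085, 0.0762 and 0.104). Of 23 measured Myc targets 5 rose, 3 fell and 15 did not pass. The list's median lay 0.19 above the median of all genes. Nop58, a ribosome assembly protein, rose by 0.90 ± 0.17, Tfrc, the transferrin receptor, by 1.32 ± 0.27 and Nolc1 by 0.59 ± 0.17, while Srm, the spermidine synthase, fell by 0.63 ± 0.15, though not with the deposited scaling (adjusted p = 0.104) or without BPD mouse 28 (0.0564). The other probe sets of Nolc1 (0.15) and Tfrc (1.30) did not pass. The call of Nolc1 was lost without BPD mouse 23, 28 or 36 or GFP mouse 22 (adjusted p of 0.0719, 0.0661, 0.064 and 0.0875). With the deposited scaling 8 Myc targets rose and 0 fell, and 2 rose and 0 fell without BPD mouse 28.

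Of 7 measured Egr1 co-repressors and targets, 2 rose, 1 fell and 4 did not pass, beside 8.75% of all genes called higher and 22.2% lower. Cdkn1a, the cell cycle inhibitor p21, rose by 2.32 ± 0.28 and Tgfb1, transforming growth factor beta 1, by 1.49 ± 0.43, whereas Vegfa, a vascular growth factor, fell by 0.98 ± 0.20, but not without both BPD mouse 28 and GFP mouse 31 (adjusted p = 0.0627). The call of Tgfb1, which is also on the AP-1 target list, was lost without any 1 of the BPD mice (adjusted p of 0.0793, 0.0656 and 0.0509 without mouse 23, 28 or 36), when the Gapdh ratio was a covariate (0.0751) and when no filter was set (0.0549). F3, tissue factor, stood at -0.45 ± 0.21. Of 11 measured genes of the integrated stress response, in which Atf3 acts downstream of Atf4, 1 rose, 1 fell and 9 did not pass. Ddit4, an inhibitor of mTOR signalling, rose by 0.73 ± 0.19 but not without BPD mouse 23 (adjusted p = 0.0622) or GFP mouse 29 (0.0535). Herpud1, a gene of endoplasmic reticulum quality control, fell by 1.77 ± 0.27. Ddit3, the CHOP factor, at 0.63 ± 0.21 (limma adjusted p = 0.0538) and Sesn2 at 0.65 ± 0.28 did not pass.

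**Figure D4:**
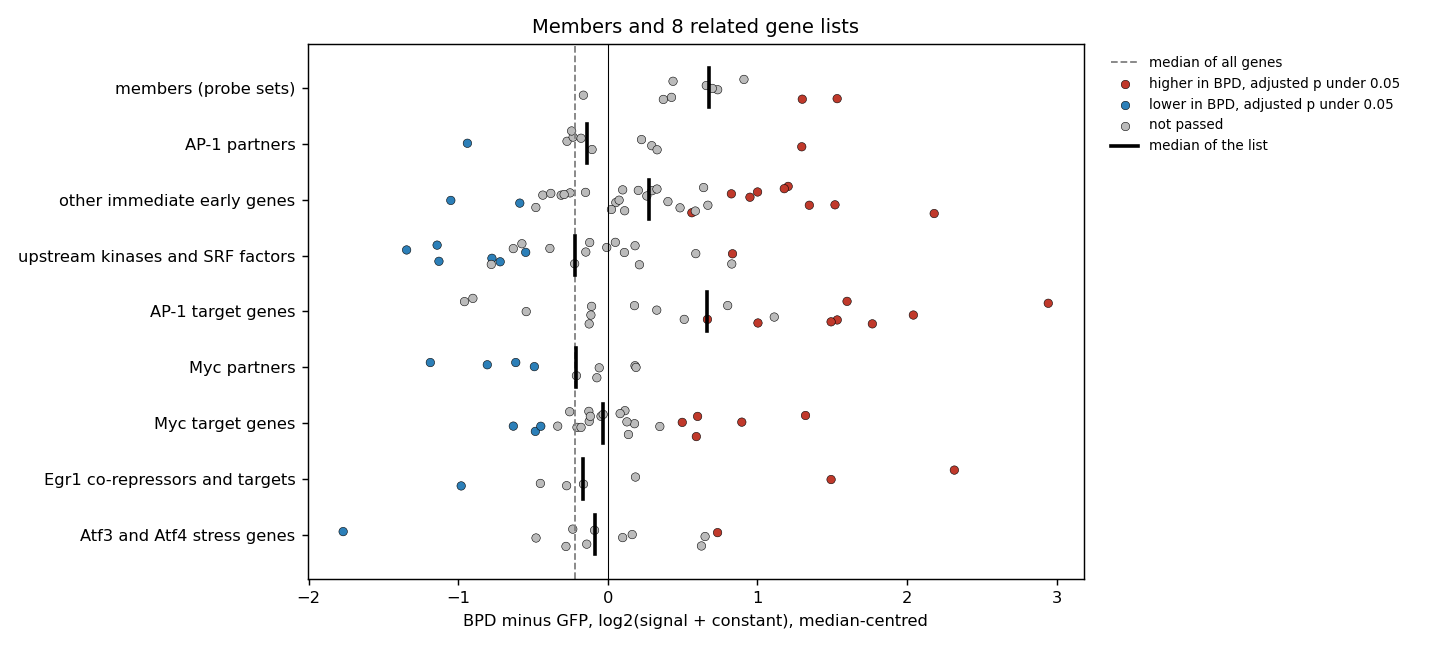
Difference between BPD and GFP livers (log2, median-centred) for the 10 tested member probe sets and the measured genes of 8 related lists. Each point is a probe set or gene, red where called higher and blue where called lower, black bars are list medians, and the dashed line is the median of all genes (-0.22). Mmp12 among AP-1 targets (2.94) and Klf6 among other immediate early genes (2.18) lie furthest to the right in their lists.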

How the data were processed

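Liver RNA of 6 mice was hybridised to 6 arrays, each read in 1 colour. Groups and mouse numbers come from the sample titles. The deposited signal intensities were made with MAS5, per the submitters' processing notes, and are linear. Each array's mean after trimming 2% at each end was 499.9, so the deposited values had been scaled to a common mean. The sources used here give neither a version nor filters. Left out were 64 control probe sets, which leaves 22626, of which 20380 carry 1 symbol in the platform annotation. All 6 columns belong to these samples, and 0 were left unused.

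Values were analysed as log2(signal + 16.3), the constant being 10% of the median of all values. Array medians differed by over 25%, so each array was centred on its median. Probe sets with a mean above the 40th percentile (a signal of 98.8) were kept, 13575 in all. For the gene lists a gene was represented by the brightest of its kept probe sets. Differences were tested in R (4.3.3) by limma (3.58.1; lmFit, eBayes with trend, 2-sided, 4 residual and 5.44 prior degrees of freedom), with a threshold of 0.05 on the adjusted p-value. The fit was tested on simulated data. Alternatives changed the constant, scaling, filter, variance model, a Gapdh ratio covariate, the probe set type and the mice included.

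The members, the 8 related lists and the 9 lists of cell markers were chosen with earlier results of these data known. Genes named are all members, up to 4 genes with the smallest p of each related list, and the 3 closest profiles of each tested member.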

Additional observations from a re-analysis of the deposited data

How the results depend on the processing

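With 19 alternatives, the number of member probe sets called higher was 2 or 3 in most, against 2 as reported. It was 0 of 7 with the filter at the 60th percentile, which leaves Atf3, Ier3 and Myc untested, 1 of 8 without probe sets of the s, x and a types, which leaves Ier3 and Myc untested, and 1 of 10 without both BPD mouse 28 and GFP mouse 31. With 1 mouse left out it ranged between 2 and 4 (4 without GFP mouse 31). The number called lower was 0 throughout. Atf3 was called in all 18 alternatives that measured it (1.09 to 1.83), and Ier3 in 16 of 17 (0.86 to 1.60). With 1 mouse left out Ier2 ranged between -0.41 and 0.052. Ier2, never called, turned sign in 6 alternatives, with 0.14 (deposited scaling), 0.0196 (quantile normalization), 0.026 (centred on bright probe sets), 0.051 (array weights), 0.052 (without BPD mouse 36) and 0.024 (without GFP mouse 31). Atf2 turned to 0.028 with the deposited scaling. Of 129 measured genes of the related lists, 26 were called higher, beside 8.75% of all genes. This number was 39 with the deposited scaling (17.2%), 34 with quantile normalization (12.7%) and 33 centred on bright probe sets (12.9%). It was 14 to 26 with 1 mouse left out (4.72% to 9.55%) and 14 without both mice (3.70%). The 18 called lower, beside 22.2% of all genes, numbered 6 to 16 with 1 mouse left out (11.4% to 21.7%) and 4 without both mice (7.03%). They numbered 7 with the deposited scaling (11.1%), 10 with quantile normalization (12.9%) and 10 centred on bright probe sets (14.5%). They numbered 9 with the Gapdh covariate (15.9%) and 9 without probe sets of the s, x and a types (17.6%). The causes were not tested. The median of all genes was -0.22 centred, 0.08 as deposited and -0.06 after quantile normalization, and the shift under quantile normalization differed between genes (Myc 0.70 centred and 0.74 quantile, Jund 0.44 and 0.83). The difference in the log2 Gapdh ratio was -0.08, and -0.16 to -0.02 with 1 mouse left out. No paired analysis was possible because the groups share no mouse number. Signals near the added constant (Fosb) limit what can be measured.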
